A study of Mus musculus with 8 samples.

Results

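Transcripts of the enteric nervous system and of the gut's pacemaker cells were followed through 8 genes in RNA-seq of the mouse distal colon. *Kit* and *Ano1* stand for the interstitial cells of Cajal, *Sox10* and *S100b* for enteric glia, and *Ret*, *Elavl4*, *Uchl1* and *Vip* for enteric neurons. The genes were chosen by name as markers of these cell types, without a threshold on their values, though with earlier results of these data known. All 8 were found among the 15859 genes of the deposited counts, and all 8 passed the filter on low counts that left 14371 genes to test.

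Distal colons came from 8 male mice in 4 groups of 2. WT day 0 and *Hsf1* null day 0 were untreated mice, and WT day 15 and *Hsf1* null day 15 had received azoxymethane (AOM, a carcinogen) and dextran sulfate sodium (DSS, an irritant that inflames the colon). AOM was injected once into the peritoneum at 10 mg/kg when the mice were 8 weeks old, and from day 7 the drinking water held 1.5% DSS for 5 days. The mice were on a BALB/c x 129SvEV background, and the nulls lacked *Hsf1*, the heat shock transcription factor, in every cell of the body. Sample titles and the study's methods place the collection at day 15, 3 days after DSS ended, whereas the protocol in the labels ends with DSS itself. The labels give an age of 10 weeks for mice of all groups. Whole tissue was sequenced, so fewer cells of a type and less RNA per cell cannot be told apart anywhere below.

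The wall of the colon carries its own nervous system. Enteric neurons lie in ganglia within that wall and control contraction, secretion and blood flow, and enteric glia surround and support them. Interstitial cells of Cajal generate the slow electrical waves that pace the smooth muscle and pass signals from nerve to muscle. These cells come from different sources: neurons and glia descend from the neural crest, while interstitial cells of Cajal descend from the mesenchyme of the gut.

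Total counts per library ran from 2553348 to 12440257, with the lowest totals in the second replicate of both untreated groups (2553348 in WT day 0 and 2675976 in *Hsf1* null day 0). Levels are given as CPM, which is the gene's share of the counts of its library after TMM scaling, and 3 counts were worth 0.246 to 1.19 CPM depending on the library. *Hsf1* itself was at 40.5 and 36.5 CPM in WT day 0 and at 50.5 and 45.9 CPM in WT day 15, against 14.0 and 11.9 CPM in *Hsf1* null day 0 and 13.5 and 9.09 CPM in *Hsf1* null day 15. *Hsf1* was higher in WT than in null mice by 2.10 on the log2 scale at day 15 (SE 0.30, adjusted p = 0.0137) and by 1.57 at day 0 (SE 0.30, adjusted p = 0.775), where no gene of all tested was called. Counts thus remained for *Hsf1* in the nulls, and which of its exons they fall in is not shown by counts per gene. A gene was called changed when its adjusted p in edgeR was under 0.05 and its log2 fold change was above 1 in size. Every call named below meets both, unless DESeq2 or another setting is named with it.

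*Kit* encodes the receptor tyrosine kinase that interstitial cells of Cajal need to develop and survive, and *Ano1* encodes the calcium-activated chloride channel that carries their pacemaker current. *Uchl1* encodes a deubiquitinase so abundant in neurons that its protein, PGP9.5, serves as a general nerve stain. The stretch of 250 bases before the RefSeq start of each of these genes is shown because each was called in 1 genotype or both below and has a window, which *Ret* lacks, and because *Hsf1* binds DNA directly. The sequences are from RefSeq on GRCm38.p6 and are written on the strand of the gene, 5′ to 3′, and capitals mark letters of the heat shock element.
Kit, chr5:75574737-75574986, + strand: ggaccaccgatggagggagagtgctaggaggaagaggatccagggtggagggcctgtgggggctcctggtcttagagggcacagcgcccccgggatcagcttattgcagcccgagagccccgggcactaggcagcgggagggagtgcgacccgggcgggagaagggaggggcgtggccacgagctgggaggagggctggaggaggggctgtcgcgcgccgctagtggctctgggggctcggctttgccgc
Ano1, chr7:144738574-144738823, - strand: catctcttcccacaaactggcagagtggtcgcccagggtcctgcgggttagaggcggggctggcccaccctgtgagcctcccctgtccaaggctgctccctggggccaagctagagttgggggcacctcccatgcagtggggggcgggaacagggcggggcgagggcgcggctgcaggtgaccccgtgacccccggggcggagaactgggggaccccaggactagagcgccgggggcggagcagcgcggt
Uchl1, chr5:66675871-66676120, + strand: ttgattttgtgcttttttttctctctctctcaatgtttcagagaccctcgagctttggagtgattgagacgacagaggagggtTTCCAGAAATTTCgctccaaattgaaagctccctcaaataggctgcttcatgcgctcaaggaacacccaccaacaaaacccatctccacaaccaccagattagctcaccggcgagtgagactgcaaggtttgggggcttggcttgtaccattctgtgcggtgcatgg

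Heat shock elements are built of inverted GAA repeats, so GAANNTTC and TTCNNGAA were searched for in the 250 bases before the start of 27025 RefSeq genes. Each motif reads the same on both strands, and the motifs may overlap. GAANNTTC was in 6.78% of these windows and TTCNNGAA in 7.1%. Of the 8 genes, 6 had a window (none was matched for *Sox10* and *Ret*), and *Uchl1* was the one that held either motif. There both overlapped in a triplet, TTCNNGAANNTTC, whose first base lies 167 bases before the start, and 0.2% of all windows held that triplet on the strand of the gene and 0.4% on either strand. The *Kit* and *Ano1* windows had a G and C content of 70.8% and 72.0%, against 48.8% for *Uchl1* and a median of 52.0% over all windows.

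Per GENCODE M21 on GRCm38, *Kit* spans chr5:75574916-75656722 on the + strand and *Ano1* spans chr7:144588549-144751974 on the - strand. *Sox10* spans chr15:79154908-79165240 on the - strand, which is 2.653 Mb from the disrupted *Hsf1* gene on the same chromosome. *S100b* spans chr10:76253853-76261159 and *Vip* chr10:5639218-5647617, both on the + strand. *Ret* spans chr6:118151745-118197718 and *Elavl4* chr4:110203722-110351909, both on the - strand, and *Uchl1* spans chr5:66676091-66687234 on the + strand. *Uchl1* shares 295 exon bases with an antisense gene, *Uchl1os*, which has no row of its own in the counts, and whether counting used the strand is not given in the sources used here. The RefSeq starts of the *Kit*, *Ano1* and *Uchl1* windows printed above lie inside these spans, by the most for *Ano1*, whose span reaches further upstream in GENCODE. *Ano1* and *S100b* overlap a gene on the other strand without shared exon bases.

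*Ano1* fell after AOM-DSS in both genotypes. It stood at 373 and 486 CPM in WT day 0 and at 335 and 431 CPM in *Hsf1* null day 0, and at 89.3 and 59.5 CPM in WT day 15 and 168 and 96.2 CPM in *Hsf1* null day 15. Each treated mouse was below each untreated mouse, with no overlap. The decrease was 5.76-fold in WT (log2 fold change -2.53, SE 0.35, adjusted p = 0.0065) and 2.90-fold in *Hsf1* null mice (log2 fold change -1.54, SE 0.34, adjusted p = 0.0237). Averaged over the genotypes it was 4.09-fold (log2 fold change -2.03, SE 0.24, adjusted p = 0.0014). That averaged call held in each of the 8 fits that left out 1 mouse, with log2 fold changes of -2.25 to -1.86. The call in WT was lost without replicate 2 of WT day 15 (log2 fold change -2.26, adjusted p = 0.0530). The call in nulls was lost without replicate 2 of *Hsf1* null day 0 (-1.35, adjusted p = 0.180) or replicate 2 of *Hsf1* null day 15 (-1.19, adjusted p = 0.0810).

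*Kit*, the other gene of the interstitial cells of Cajal, was lower in treated than in untreated WT mice. Its levels were 59.7 and 71.9 CPM in WT day 0 and 30.0 and 25.1 CPM in WT day 15, a 2.38-fold decrease (log2 fold change -1.25, SE 0.25, adjusted p = 0.0219). In *Hsf1* null mice the levels were 57.2 and 63.2 CPM at day 0 and 59.4 and 46.3 CPM at day 15, and the groups overlapped (log2 fold change -0.19, SE 0.25, adjusted p = 0.643). Averaged over the genotypes the value was -0.72 (SE 0.18, adjusted p = 0.0158), which is under the fold threshold. At day 15 both WT mice were below both null mice (log2 fold change of WT against null -0.94, SE 0.25, adjusted p = 0.0696). The difference between the genotypes in the day 15 change was -1.06 on the log2 scale (SE 0.36, adjusted p = 0.455), so the test of the difference itself did not pass. The call in WT was lost on leaving out either WT day 0 mouse or either WT day 15 mouse, with adjusted p-values of 0.0501 to 0.154 and log2 fold changes of -1.38 to -1.10.

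**Figure D1:**
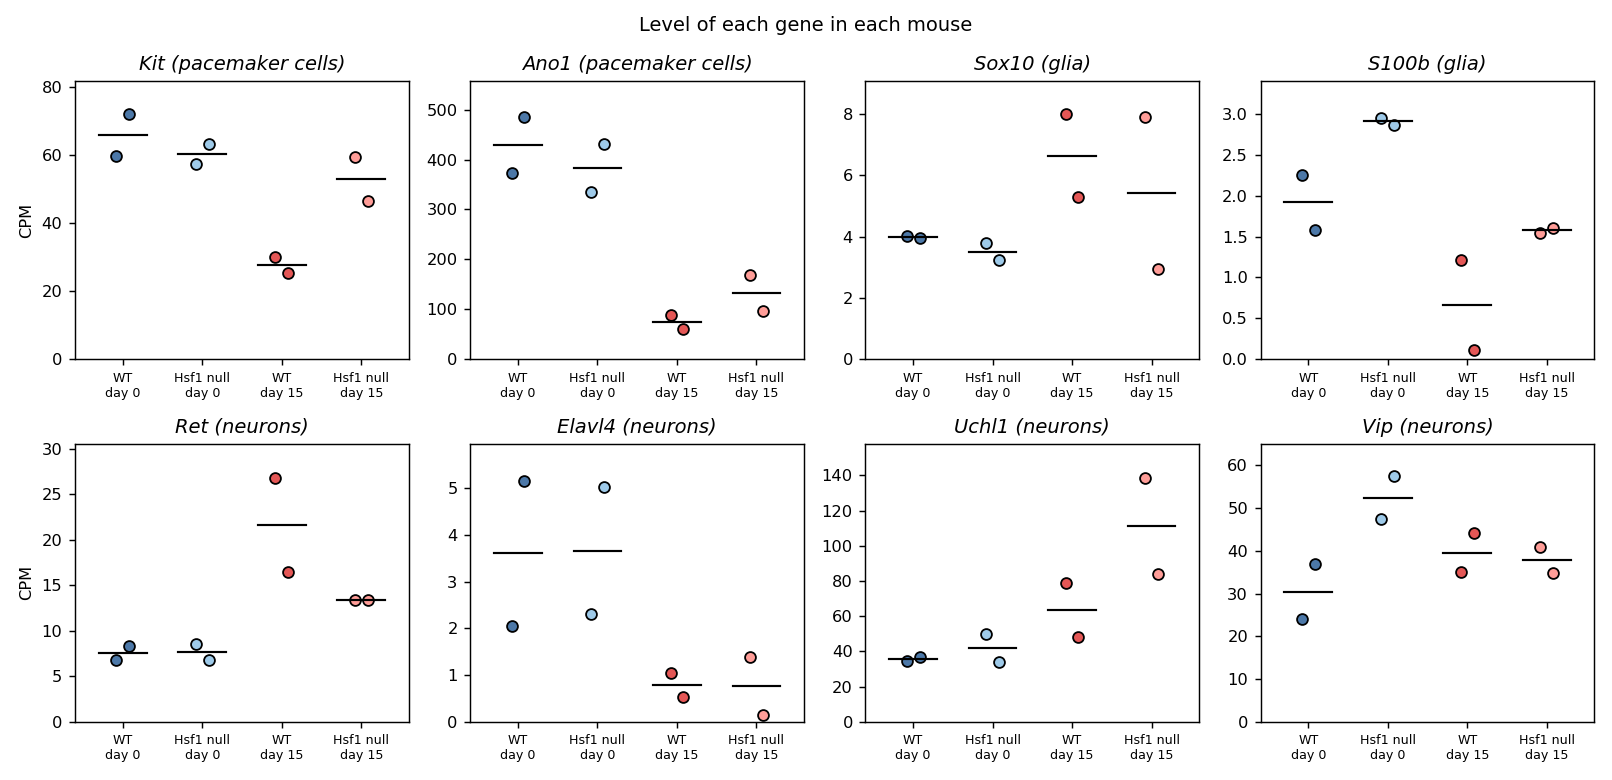
Level of the 8 genes in each mouse, in CPM on a linear axis from 0, 1 panel per gene; points are single mice (2 per group) and bars are group means. Ano1 sits between 335 and 486 CPM in the 4 untreated mice and between 59.5 and 168 CPM in the 4 treated mice.

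*Sox10* encodes the transcription factor that keeps neural crest cells in the glial lineage, and *S100b* encodes a calcium-binding protein of glia. Neither was called in any comparison, and both were rare transcripts. *Sox10* was at 4.02 and 3.97 CPM in WT day 0, 3.78 and 3.23 CPM in *Hsf1* null day 0, 8.00 and 5.28 CPM in WT day 15, and 7.91 and 2.94 CPM in *Hsf1* null day 15. The WT groups did not overlap, while the null mice at day 15 lay on either side of the null mice at day 0. The averaged change was 0.67 on the log2 scale (SE 0.40, adjusted p = 0.227).

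*S100b* was at 2.25 and 1.59 CPM in WT day 0 and 2.96 and 2.87 CPM in *Hsf1* null day 0, and at 1.22 and 0.11 CPM in WT day 15 and 1.55 and 1.60 CPM in *Hsf1* null day 15. Behind these levels stood between 1 and 36 counts per library. Treated mice were below untreated mice within each genotype, and the averaged log2 fold change was -1.20 (SE 0.60, adjusted p = 0.152). Without replicate 1 of WT day 15 the averaged value became -2.46 (adjusted p = 0.0266), which rests on the single count in the other mouse of that group.

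*Ret* encodes the receptor for glial cell line-derived neurotrophic factors and is needed for the gut to be populated by neurons; enteroendocrine cells can also express it. It rose in treated WT mice. *Ret* stood at 6.76 and 8.34 CPM in WT day 0 and at 26.8 and 16.5 CPM in WT day 15, a 2.91-fold increase (log2 fold change 1.54, SE 0.38, adjusted p = 0.0380). In *Hsf1* null mice it stood at 8.54 and 6.83 CPM at day 0 and 13.3 and 13.4 CPM at day 15. These null groups did not overlap either, but the change was not called (log2 fold change 0.77, SE 0.38, adjusted p = 0.185). Averaged over the genotypes *Ret* rose 2.23-fold (log2 fold change 1.16, SE 0.27, adjusted p = 0.0121). The genotype difference in that change was 0.77 (SE 0.53, adjusted p = 0.711). The WT call was lost in 6 of 8 fits that left out 1 mouse, with adjusted p-values of up to 0.171, and the averaged one fell under the fold threshold without replicate 1 of WT day 15 (0.96).

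*Uchl1* rose in treated *Hsf1* null mice. It was at 49.8 and 33.8 CPM in *Hsf1* null day 0 and at 138 and 84.1 CPM in *Hsf1* null day 15, a 2.63-fold increase (log2 fold change 1.40, SE 0.34, adjusted p = 0.0304). In WT mice it was at 34.5 and 36.9 CPM at day 0 and 79.1 and 48.3 CPM at day 15. The WT groups did not overlap, but the change was not called (log2 fold change 0.84, SE 0.34, adjusted p = 0.146). The genotype difference in the change was -0.56 (SE 0.48, adjusted p = 0.762), and the increase averaged over genotypes was 2.17-fold (log2 fold change 1.12, SE 0.24, adjusted p = 0.0093). The null call was lost without replicate 2 of *Hsf1* null day 0 (1.16, adjusted p = 0.236) or replicate 1 of *Hsf1* null day 15 (0.99, adjusted p = 0.133). The averaged value came to 0.997, 0.92 and 0.92, under the fold threshold, without replicate 2 of *Hsf1* null day 0, replicate 1 of WT day 15 or replicate 1 of *Hsf1* null day 15.

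*Elavl4* encodes HuD, an RNA-binding protein of neurons, and went the other way. It was at 2.06 and 5.16 CPM in WT day 0 and 2.30 and 5.03 CPM in *Hsf1* null day 0, and at 1.04 and 0.53 CPM in WT day 15 and 1.40 and 0.13 CPM in *Hsf1* null day 15. All 4 treated mice were below all 4 untreated mice, and the averaged log2 fold change of -2.13 (SE 0.68, adjusted p = 0.0403) was called. Within single genotypes it was not called (WT -2.06, SE 0.94, adjusted p = 0.189; nulls -2.20, SE 0.98, adjusted p = 0.152). Counts per library were 28 at most and 1 at least. The averaged call was lost in 6 of the fits that left out 1 mouse, namely all but those without replicate 1 of WT day 0 or replicate 1 of *Hsf1* null day 15, with adjusted p-values of up to 0.132. Over the 8 fits the log2 fold change ran from -1.67, without replicate 2 of *Hsf1* null day 15, to -3.29, without replicate 1 of that group.

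*Vip* encodes vasoactive intestinal peptide, which inhibitory and secretomotor neurons release to relax muscle and drive secretion. It was not called in any comparison. *Vip* was at 24.0 and 36.9 CPM in WT day 0, 35.0 and 44.2 CPM in WT day 15, 47.4 and 57.5 CPM in *Hsf1* null day 0, and 41.0 and 34.9 CPM in *Hsf1* null day 15. The WT groups overlapped (log2 fold change 0.40, SE 0.29, adjusted p = 0.407), and both treated null mice were below both untreated null mice (-0.46, SE 0.29, adjusted p = 0.295). These opposite values averaged to -0.03 (SE 0.21, adjusted p = 0.919), and the genotype difference in the change was 0.86 (SE 0.41, adjusted p = 0.608). Both WT mice were below both null mice at day 0, by -0.80 (SE 0.29), and with an adjusted p of 0.775 this was not called.

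**Figure D2:**
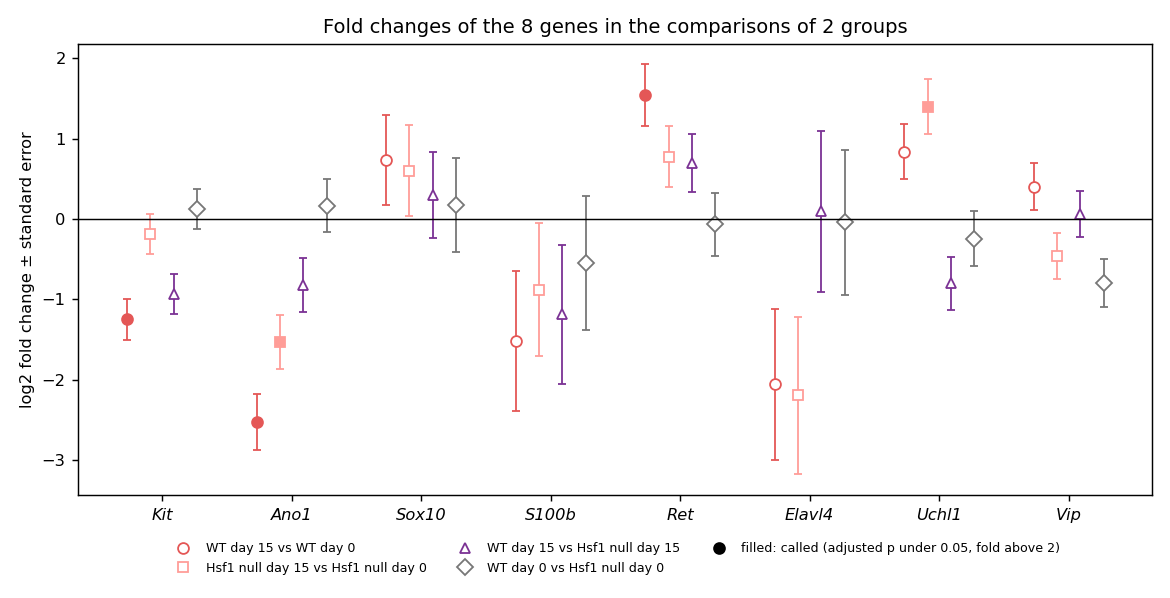
Log2 fold change with its standard error for each of the 8 genes in the 4 comparisons of 2 groups, by day within a genotype and WT against null within a day; filled points were called. Ano1 was called in both genotypes (-2.53 and -1.54), Kit and Ret in WT (-1.25 and 1.54) and Uchl1 in nulls (1.40).

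Counted over the 8 genes, 3 were called between WT day 15 and WT day 0, where 7.74% of all genes tested were called. Between *Hsf1* null day 15 and *Hsf1* null day 0 it was 2 of 8, with 11.8% of all genes called, and averaged over genotypes 4 of 8, with 16.4% of all genes called. Of the averaged calls 2 were lower at day 15, where 8.32% of all genes were. Groups of mice did not overlap for 7 of 8 genes in WT (all but *Vip*), where 62.5% of all genes tested did not overlap, and for 6 of 8 in nulls (all but *Kit* and *Sox10*), against 61.3%. With the genotypes pooled this held for *Ano1*, *Ret* and *Elavl4*, 3 of 8 against 26.3%. The median log2 fold change of the 8 genes was -0.43 in WT and -0.32 in nulls, beside 0.00 and 0.05 over all genes tested. The comparison in WT and the comparison in nulls share no mice.

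Between the genotypes none of the 8 genes was called at day 15, at day 0, or averaged over the days, by edgeR or by DESeq2. In counts simulated for WT day 15 against WT day 0, edgeR called 4 of 100 genes changed 2-fold and 65 of 100 changed 4-fold. A gene that was not called may therefore still differ. At day 15, 3 of 8 (*Kit*, *Ano1* and *Uchl1*, each lower in WT) had an unadjusted p under 0.05, where 23.2% of all genes did, and 3.17% of all genes were called. *Ano1* was at -0.83 (SE 0.33, adjusted p = 0.175) and *Uchl1* at -0.80 (SE 0.33, adjusted p = 0.185) on the log2 scale, WT against null. For 5 of 8 genes the day 15 groups did not overlap (*Kit*, *Ano1*, *S100b* and *Uchl1* lower and *Ret* higher in WT), and 54.8% of all genes did not overlap there. At day 0 edgeR called 0 genes of all tested (0%), 904 had an unadjusted p under 0.05 (6.29%), with *Vip* as 1 of the 8, and DESeq2 called 18. Groups did not overlap for *Sox10*, *S100b* and *Vip*, 3 of 8 against 37.1%. Averaged over days, 1.01% of all genes were called, and 1 of the 8 genes, *Kit*, had an unadjusted p under 0.05, where 22.3% of all genes did. For the genotype difference in the day 15 change 0.00696% of all genes were called by edgeR, which is 1 gene, and none of the 8, of which *Kit* had an unadjusted p under 0.05, where 8.62% of all genes did.

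Divided by exon length, levels can be set beside each other between genes. In WT day 0, CPM per kb of exon was 68.7 ± 12.8 (SD, n = 2) for *Ano1*, 21.9 ± 1.05 for *Uchl1*, 8.96 ± 2.68 for *Vip* and 7.38 ± 0.966 for *Kit*. *Sox10* (1.31 ± 0.0112), *S100b* (1.29 ± 0.317), *Ret* (1.12 ± 0.165) and *Elavl4* (0.670 ± 0.407) followed, and neighbours among these 4, like *Vip* and *Kit*, were within their spread of each other. In WT day 15 the order was led by *Uchl1* at 39.0 ± 13.3 CPM per kb, followed by *Ano1* at 11.9 ± 3.37 and *Vip* at 11.6 ± 1.91, which were within their spread, and then by *Ret* at 3.20 ± 1.08 and *Kit* at 3.09 ± 0.387. *Hsf1* null mice also had *Ano1* first at day 0 (61.3 ± 10.8 CPM per kb, with *Uchl1* at 25.6 ± 6.96) and *Uchl1* first at day 15 (68.2 ± 23.5, with *Ano1* at 21.1 ± 8.10). The group mean of *Elavl4* was the lowest in all 4 groups, at 0.142 ± 0.166 CPM per kb in *Hsf1* null day 15, and in WT day 15 it was within its spread of *S100b* (0.446 ± 0.530).

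Other genes of these cells came from 5 lists, given here without the 8 genes. Over all 5 lists together, edgeR called 16 of 94 tested genes in the averaged comparison of the days, where 16.4% of all genes were called. Of these 14 were lower at day 15, beside 8.32% of all genes, and 2 were higher, beside 8.04% of all genes. DESeq2 called 17. In single genotypes edgeR called 4 of 94 in WT, beside 7.74% of all genes, and 8 of 94 in nulls, beside 11.8%. Without both smallest libraries 1 gene of the lists, *Kitl*, was called in the averaged comparison and 0 in either genotype, beside 325 and, in WT and nulls, 4 and 0 of all genes.

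Among other pacemaker genes, such as *Etv1*, the transcription factor of these cells, and *Thbs4*, 0 of 9 were called in any comparison by edgeR, and their median averaged log2 fold change was 0.08 beside 0.02 over all genes. In that comparison 3 of 9 had an unadjusted p under 0.05, where 43.0% of all genes did, and DESeq2 called 0 of 9 by day and *Gja1* between the genotypes. Of the 9 genes 5 lay above 0. In WT the treated mice were below the untreated ones without overlap for 3 of 9 and above them for 2 of 9, beside 62.5% of all genes without overlap in either direction. The lower ones were *Etv1* (5.98 and 7.54 against 2.70 and 3.06 CPM), *Thbs4* (249 and 411 against 206 and 186 CPM) and *Slc12a2*, a chloride cotransporter (271 and 274 against 224 and 139 CPM). The higher ones were *Gja1*, a gap junction protein (34.6 and 17.5 against 41.7 and 58.4 CPM), and *Prkcq*, a protein kinase C (2.74 and 2.78 against 5.83 and 12.5 CPM).

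Of 12 other glial genes edgeR called 3 lower at day 15 in the averaged comparison, where 8.32% of all genes were, and 0 higher. DESeq2 called 2 of them, without *Foxd3*, and none was called without both smallest libraries. These were *Foxd3*, a transcription factor of the neural crest (log2 fold change -2.31, SE 0.75, adjusted p = 0.0423), *Cdh19*, a cadherin of Schwann cells and glia (-2.24, SE 0.70, adjusted p = 0.0367), and *Erbb3*, a neuregulin receptor (-1.20, SE 0.31, adjusted p = 0.0189). *Foxd3* and *Cdh19* had at most 30 counts per library. *Erbb3*, at 44.6 to 225 CPM, is also a gene of the gut epithelium, and it was called in WT as well (-1.77, SE 0.45, adjusted p = 0.0407). *Gfap*, a glial intermediate filament, was between 0.40 and 2.87 CPM in untreated and between 2.09 and 6.86 CPM in treated mice, and was not called.

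Of 29 other neuronal genes 1 rose and 1 fell in the averaged comparison, beside 8.04% and 8.32% of all genes. *Prph*, an intermediate filament of peripheral neurons, was at 8.72 and 18.3 CPM in WT day 0 and 22.3 and 13.3 CPM in *Hsf1* null day 0, and at 30.2 and 28.2 CPM in WT day 15 and 69.3 and 39.1 CPM in *Hsf1* null day 15 (log2 fold change 1.38, SE 0.30, adjusted p = 0.0099). All treated mice lay above all untreated mice for *Prph*. *Map2*, a microtubule protein of dendrites, lay wholly the other way, at 9.51 and 11.5 CPM in WT day 0 and 18.5 and 23.4 CPM in *Hsf1* null day 0, against 3.83 and 2.96 CPM in WT day 15 and 7.76 and 7.62 CPM in *Hsf1* null day 15 (-1.52, SE 0.27, adjusted p = 0.0041). *Map2* fell in each genotype (WT -1.61, SE 0.38, adjusted p = 0.0340; nulls -1.43, SE 0.37, adjusted p = 0.0350), and *Prph* was called in nulls (1.57, SE 0.42, adjusted p = 0.0398). The median of the list was 0.23, with 17 of 29 genes above 0.

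Of 17 other genes for transmitters and peptides, *Penk* rose and *Nmu* fell in the averaged comparison, 1 of 17 each way beside 8.04% and 8.32% of all genes, and neither was called by edgeR in a single genotype. *Penk*, the precursor of the enkephalins, was between 15.8 and 24.1 CPM in untreated and between 33.3 and 49.8 CPM in treated mice (log2 fold change 1.04, SE 0.23, adjusted p = 0.0095). *Nmu*, the neuron-derived peptide neuromedin U, was at 4.02 and 7.15 CPM in WT day 0 and 1.48 CPM in both WT day 15 mice, and at 9.03 and 9.70 CPM in *Hsf1* null day 0 and 7.91 and 3.34 CPM in *Hsf1* null day 15 (-1.29, SE 0.39, adjusted p = 0.0338). *Nos1*, the nitric oxide synthase of inhibitory neurons, was between 14.8 and 28.2 CPM in untreated and between 16.3 and 31.8 CPM in treated mice and was not called.

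Ligands and receptors through which these cells are maintained or act made up the list with the most calls, 9 of 27 lower and 0 higher at day 15 in the averaged comparison, where 8.32% of all genes were lower. Their median log2 fold change was -0.72, with 9 of 27 genes above 0. The largest decreases were those of *Htr4*, a serotonin receptor of enteric neurons and muscle (-2.20, SE 0.37, adjusted p = 0.0037), *Tacr2*, the muscle receptor for neurokinin A (-2.11, SE 0.52, adjusted p = 0.0158), and *Chrm2*, a muscarinic acetylcholine receptor of muscle (-1.93, SE 0.55, adjusted p = 0.0273). *Kitl*, the ligand of *Kit*, was at 72.9 and 78.2 CPM in WT day 0 and 59.5 and 160 CPM in *Hsf1* null day 0, and at 27.2 and 25.6 CPM in WT day 15 and 33.0 and 36.5 CPM in *Hsf1* null day 15. *Kitl* fell in both genotypes (WT -1.52, SE 0.39, adjusted p = 0.0445; nulls -1.64, SE 0.39, adjusted p = 0.0293), as *Htr4* did (WT -2.32, adjusted p = 0.0301; nulls -2.07, adjusted p = 0.0322).

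In *Hsf1* null mice 6 of 27 fell, where 11.8% of all genes were called in either direction and 931 of 14371 were called lower. The 6 were *Kitl*, *Htr4*, *Tacr2* (-2.70, adjusted p = 0.0481), *Gucy1a1* (-2.28, adjusted p = 0.0323), *Gucy1b1* (-1.82, adjusted p = 0.0495) and *Prkg1* (-2.08, adjusted p = 0.0327). *Gucy1a1* and *Gucy1b1* encode both subunits of the guanylyl cyclase through which nitric oxide relaxes muscle, and *Prkg1* the kinase that its product activates. In WT mice 2 of 27, *Kitl* and *Htr4*, were called by edgeR, beside 7.74% of all genes. The others had lower values in treated WT mice too, without overlap, at -1.52 for *Tacr2* (adjusted p = 0.190), -1.17 for *Gucy1a1* (0.191), -0.62 for *Gucy1b1* (0.460) and -1.31 for *Prkg1* (0.134). The genotype difference in the change was called for 0 of 27 by edgeR, beside 0.00696% of all genes, and for 0 by DESeq2. Of the 27, 2 had an unadjusted p under 0.05, where 8.62% of all genes did. *Gfra1*, the co-receptor of *Ret*, was picked out here after its values were seen: it lay between 5.96 and 9.31 CPM in untreated and between 2.01 and 4.19 CPM in treated mice (averaged log2 fold change -1.42, SE 0.37, adjusted p = 0.0186), while *Ret* rose. The *Ret* ligand *Gdnf* was between 0.96 and 5.03 CPM in all mice and was not called.

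**Figure D3:**
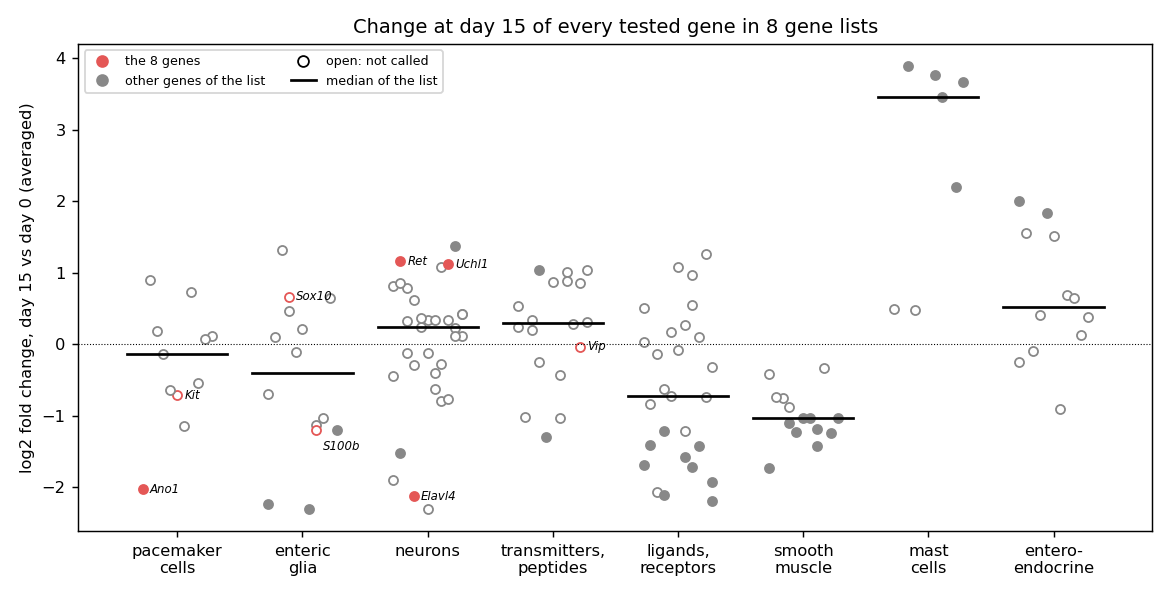
Averaged log2 fold change, day 15 against day 0, of each tested gene of the 5 lists and of smooth muscle, mast cell and enteroendocrine markers, 1 column of points per list, with called genes filled, the 8 genes in red and list medians, the 8 genes included, as bars. The ligands and receptors lie mostly below 0, with 9 genes called lower and 0 higher.

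Between genotypes edgeR called 0 genes of the 5 lists in each of the 3 genotype comparisons. At day 15, 15 of 94 had an unadjusted p under 0.05, beside 23.2% of all genes, and DESeq2 called 5 (*Calb2*, *Erbb2*, *Gja1*, *Nmu* and *Nrg1*) of 1197 over all genes. At day 0, 7 of 94 had such a p, beside 6.29% of all genes, and DESeq2 called 0 of 18. Averaged over days, 19 of 94 had such a p, beside 22.3% of all genes, and DESeq2 called 4 of 644. Other neuronal genes had a median log2 fold change of -0.56 between WT day 15 and *Hsf1* null day 15, with 5 of 29 above 0, beside 0.03 over all genes. Lists of other cell types also lay to 1 side in that comparison: the median was -0.67 for epithelium (0 of 14 above 0) and -0.81 for smooth muscle (2 of 14), and 1.66 for immune cells (11 of 11), 1.14 for fibroblasts (9 of 9) and 1.16 for endothelium (8 of 8). Their part in the values of the neuronal genes was not tested.

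Smooth muscle, which interstitial cells of Cajal and nerve endings lie within, moved with treatment as well. The summed level of 14 smooth muscle markers was between 8430 and 11638 CPM in untreated mice, 4375 and 2559 CPM in WT day 15, and 6300 and 7358 CPM in *Hsf1* null day 15. Of these 14 markers 9 fell in WT, where 7.74% of all genes were called in either direction and 613 of 14371 were called lower. In nulls 1 fell, where 11.8% were called in either direction and 931 of 14371 were called lower. In the averaged comparison, where 8.32% of all genes were called lower, 9 of the 14 markers fell. None was at 0 in any library. Without both smallest libraries these counts were 0, 0 and 1. *Myh11*, the smooth muscle myosin, fell in WT (log2 fold change -1.59, SE 0.34, adjusted p = 0.0256) and so did *Actg2*, the enteric actin (-2.28, SE 0.42, adjusted p = 0.0163). In nulls *Myh11* was at -0.89 (SE 0.34) and *Actg2* at -0.10 (SE 0.40), not called.

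Set against 1000 CPM of these summed markers, *Ano1* was at 39.4 to 50.5 in untreated mice and at 20.4 and 23.2 in WT day 15 and 26.6 and 13.1 in *Hsf1* null day 15, so the days still did not overlap. *Kit* overlapped between the days, at 6.17 to 7.41 in untreated and 6.29 to 9.82 in treated mice. *Ret* was at 0.72 to 1.00 in untreated mice, at 6.12 and 6.44 in WT day 15 and at 2.12 and 1.82 in *Hsf1* null day 15. *Uchl1* was at 3.17 to 5.85 in untreated mice, 18.1 and 18.9 in WT day 15 and 22.0 and 11.4 in *Hsf1* null day 15. *Elavl4* was at 0.24 to 0.59 in untreated and at 0.02 to 0.24 in treated mice. The part of smooth muscle in the change of *Kit* and *Ano1* was not tested. Immune markers summed to 193 to 412 CPM in untreated mice, 836 and 1720 CPM in WT day 15 and 313 and 464 CPM in *Hsf1* null day 15, with 6 of 11 called higher in the averaged comparison, beside 8.04% of all genes. Endothelial markers had 2 of 8 called higher there, and without both smallest libraries these counts were 2 of 11 and 0 of 8. Their part in the levels of the 8 genes was not tested either.

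**Figure D4:**
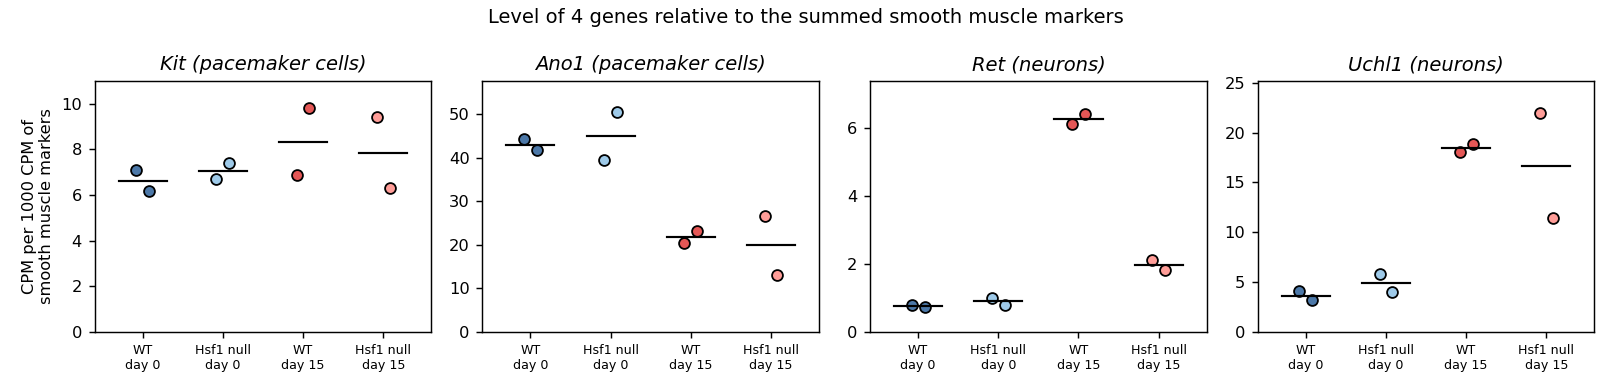
Levels of Kit, Ano1, Ret and Uchl1 per 1000 CPM of 14 summed smooth muscle markers in each mouse, linear axis from 0; points are single mice and bars group means. Ano1 stays lower in the 4 treated mice (13.1 to 26.6 against 39.4 to 50.5), whereas Kit overlaps.

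*Kit*, *Ret* and *Uchl1* are also transcribed outside the enteric nervous system and pacemaker cells, so marker lists of other cells are set beside them. Mast cells, which carry *Kit*, had a summed level over their markers of 23.4 to 42.9 CPM in untreated and 132 to 150 CPM in treated mice. *Cma1*, a mast cell chymase, made up 89.5 and 45.7 CPM of that sum in *Hsf1* null day 15 but 22.8 and 7.29 CPM in WT day 15, against 17.6 to 29.8 CPM in untreated mice. Of 7 tested mast cell genes 5 were called higher in the averaged comparison, beside 8.04% of all genes, and 0 lower. Without both smallest libraries 2 were called, *Mcpt1* and *Mcpt2*. *Cpa3* had between 0 and 4 counts in each untreated library and 23, 27, 1 and 19 counts in the treated ones, and *Tpsb2* had at most 11 counts in any library. Enteroendocrine markers, 12 in all, summed to 515 to 850 CPM in untreated and 468 to 1125 CPM in treated mice, with 2 called higher in the averaged comparison (*Cck* and *Sct*), beside 8.04% of all genes, and 0 at 0 in any library. Without both smallest libraries 0 of the 12 were called. Of 6 genes of melanocytes, cells that share *Kit* and *Sox10*, the pigment genes *Tyr*, *Tyrp1* and *Mlana* have no row in the counts. *Mitf* was at 4.37 to 9.90 CPM, *Pmel* at 1.08 to 4.37 CPM and *Dct* at 0 to 0.94 CPM, and the 3 together summed to 7.19 to 13.0 CPM in untreated and 8.00 to 11.4 CPM in treated mice. The part of mast cells, melanocytes and enteroendocrine cells in the levels of *Kit*, *Sox10*, *Ret* and *Uchl1* was not tested. Nor was the part of cells other than interstitial cells of Cajal in the level of *Ano1*.

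Over the 8 mice, the level of *Kit* followed that of *Ano1* (Pearson's r of log2(CPM + 1) 0.90, and 0.98 for deviations from group means), a description over 8 points that share 4 group means and their library depth. *Ano1* also went with *Elavl4* (r = 0.90) and against *Ret* (r = -0.87), while the r of *Vip* with each of the 7 other genes was between -0.10 and 0.27. Among 11512 tested genes with a mean of at least 5 CPM, the genes whose pattern was most like that of *Kit* were *5033404E19Rik* (r = 0.996), *Fads2* (0.990) and *Adgra2* (0.986). Those most like *Ano1* were *Zkscan7* (0.995), *Hmcn1* (0.995) and *Tshz1* (0.994). For the glial genes they were *Dgkz* (0.981), *Muc1* and *Acap3* (both 0.954) with *Sox10*, and *Lrrc75a* (0.990), *Gsn* (0.971) and *Dock1* (0.966) with *S100b*. For the neuronal genes they were *Ppy* (0.985), *Rac3* (0.983) and *Ccdc124* (0.982) with *Ret*, *Sh3d19* (0.981), *Zdhhc23* (0.973) and *Aspa* (0.972) with *Elavl4*, and *Dolpp1* (0.983), *Etfb* (0.974) and *Map3k4* (0.969) with *Uchl1*. *Vip* had the loosest matches, with *Rpp38* (0.938), *Tomm5* (0.934) and *Glt28d2* (0.908).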

How the data were processed

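PolyA RNA of the distal colon of 8 mice was sequenced, and groups and replicate numbers were read from the sample labels. Reads had been aligned with STAR against mm10 by the authors, who deposited raw counts per gene symbol; the counting program and annotation are not given in the sources used here. A second deposited table is a signal per gene, which the authors made by dividing the counts by DESeq2 size factors; it was used to check normalization only. Each gene in the counts reaches 6 counts in at least 1 sample.

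Counts were tested with edgeR 4.0.16 (quasi-likelihood, TMM, R 4.3.3) on all 8 samples with 1 mean per group, for genes with a mean normalized count above 5. P-values were adjusted by Benjamini-Hochberg over all 14371 genes, and a call needed an adjusted p under 0.05 and a log2 fold change above 1 in size. SE is the log2 fold change divided by the square root of F. Labels name separate mice, 2 per group. Counts of 3 were taken as the floor, and depth limits precision by counting error only. Alternatives were DESeq2 1.42.0, other filters and scalings, a replicate block, thinning, and leaving out mice. Gene lists and the 8 genes were chosen with earlier results of these data known. From the 5 enteric lists each called gene was named, or with more than 6 in a list the 3 most raised and 3 most lowered; Etv1, Thbs4, Prkcq, Gja1, Slc12a2, Cma1, Gfap, Nos1 and Gdnf were added as examples, after their values were seen. Myh11 and Actg2 (smooth muscle), Cpa3 and Tpsb2 (mast cells) and, per gene, the 3 genes with the highest Pearson correlation completed the rule. Gucy1a1 and Gucy1b1 have older symbols in the counts. Exon lengths are the union of exons in GENCODE M21. The edgeR step was tested on simulated counts, where it called 4 of 100 genes changed 2-fold and 65 of 100 changed 4-fold, with 4 false calls. DESeq2 called 8 and 66 of them, with 11 false calls. The changed genes were taken from those with higher mean counts, and the lists step was not tested this way.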

Additional observations from a re-analysis of the deposited data

How the results depend on the processing

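No call on the 8 genes changed direction in any alternative, while 36 values that were not called changed sign. Of 865 values of the 8 genes over all comparisons, 827 kept their side of the threshold, 36 lost their call and 2 gained it. Most of these values belong to comparisons in which the gene was not called with all mice, so they had no call to lose. With no fold threshold Kit was also called in the averaged comparison (5 of 8). Without both smallest libraries, 0 of the 8 genes were called in WT (3 with all mice), 0 in nulls (2) and 1, Ano1, in the averaged comparison (4). Leaving out 1 mouse at a time gave 0 to 3 calls in WT, 0 to 2 in nulls and 2 to 4 averaged, and 0 in the genotype comparisons and the genotype difference. Thinned to the smallest library, Elavl4 was called in nulls (-3.39, adjusted p = 0.0495). Depth limits *Elavl4*, *S100b* and *Sox10* most, with counts down to 1 in a library for the first pair.

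Same-numbered mice are different animals, and their deviations from group means correlated at -0.301 to 0.202. With a replicate block, 2 of the 8 genes were called in WT (Ret lost, 1.52, adjusted p = 0.0542), 2 in nulls and 3 averaged (Elavl4 lost, -2.13, adjusted p = 0.0616). It moved the calls over all genes from 145 to 25 for genotype averaged over days and from 1 to 2 for the genotype difference.

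Calls over all genes moved more. For WT against null at day 15 they were 455 by edgeR, 1197 by DESeq2, 6 with the compared groups alone, 18 without both smallest libraries and 12 to 873 leaving out 1 mouse. At day 0 they were 0, 18 by DESeq2 and up to 17 leaving out 1 mouse. In WT day 15 against day 0 they were 1112, 1737 by DESeq2, 4 without both smallest libraries and 92 to 1336 leaving out 1 mouse. In nulls they were 1692, 0 without both smallest libraries and 0 to 1891 leaving out 1 mouse. Averaged over genotypes they were 2350, 325 without both smallest libraries, 4286 with no fold threshold and 1271 to 2534 leaving out 1 mouse. The genotype difference had 1, 130 by DESeq2, 2 with no filter or thinned, 0 without both smallest libraries and 0 to 50 leaving out 1 mouse, and genotype averaged over days had 145, 644 by DESeq2, 0 without both smallest libraries and 0 to 435 leaving out 1 mouse. The causes were not tested.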
